A study of Homo sapiens with 14 samples.

Results

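The regions described are stretches of the genome at which DRIP-seq peaks were called in SF3B1-K700E cells with and without RNase H digestion of the DNA. They had no such peak in SF3B1-K700K cells. They were selected on the peak lists alone: the peaks of 8 DRIP-seq libraries on chromosomes 1 to 22 and X were merged where they shared a base, and a merged region was taken when it held a peak of both untreated K700E libraries, a peak of both RNase H treated K700E libraries and no peak of any of the 4 K700K libraries. This rule chose 49078 of 479021 merged regions, 10.2% of them, and they covered 37.4 Mb. Presence and absence of a peak therefore define the regions and are given as a description without a test.

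The cells were Nalm-6, a leukemia line of human B cell precursors, used for DRIP-seq as an isogenic pair. SF3B1-K700K is the WT line and SF3B1-K700E the line with the hotspot mutation. The 4 groups had 2 libraries each: K700K and K700E, each from untreated DNA (UNT) and from DNA digested overnight with RNase H before the immunoprecipitation (RNH1 in the titles, RNaseH1 in the treatment label). All 8 libraries came from DNA cut with HindIII, EcoRI, BsrGI, XbaI and SspI, and each genotype is represented by a single line, so that line and mutation cannot be told apart. Nothing in the labels says whether libraries 1 and 2 of a group came from separate cultures.

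An R-loop forms when RNA anneals to the DNA strand that it was copied from and displaces the other strand. R-loops are frequent where transcription starts and ends, and they are resolved by helicases and by RNase H, which cuts the RNA of the hybrid. In DRIP-seq the hybrids are enriched with the S9.6 antibody, and digestion with RNase H is the control for its specificity: signal from hybrids should be lost, whereas signal that stays can come from hybrids that escaped digestion or from nucleic acid that is no DNA:RNA hybrid. The lists do not separate these sources. SF3B1 is the splicing factor that holds the branch site of the intron.

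The lists differ in depth. On chromosomes 1 to 22 and X, the K700K lists held 123582 and 130928 peaks (UNT) and 34857 and 77391 peaks (RNH1), and the K700E lists 253744 and 295970 (UNT) and 201117 and 198158 (RNH1). No read totals are given. The background pileup of a library, recovered from the statistics of its peaks, was 2.99 and 3.13 reads in K700K UNT, 1.62 and 2.17 in K700K RNH1, 3.51 and 4.35 in K700E UNT, and 2.76 and 2.55 in K700E RNH1. Within each treatment both K700E libraries were deeper than both K700K libraries, so that genotype and depth cannot be told apart, and a region without a K700K peak is a region not called at that depth. When the pileups of all peaks were scaled to the shallowest library, K700K RNH1 library 1, the rule chose 37692 regions. Of the 49078 regions, 32948 (67.1%) kept all 4 K700E peaks at that depth.

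The regions made up a large part of those with untreated peaks in K700E and no peak in K700K. A peak in both K700E UNT lists and in no K700K list, whatever the K700E RNH1 lists held, was found at 121885 regions, called K700E-only untreated regions here. Of these, 49078 (40.3%) had a peak in both K700E RNH1 lists, 22193 (18.2%) in 1 of them and 50614 (41.5%) in neither. The last are called RNase H sensitive here. The same rule with the genotypes exchanged chose 3942 regions, 13.0% of the 30371 K700K-only untreated regions. Of those 30371, 70.8% had no peak in either K700K RNH1 list. The K700K count depended on K700K RNH1 library 1, the shallowest of all: without it the exchanged rule chose 8392 regions.

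Seen from the other side, 101510 regions had a peak in all 4 K700E lists. No K700K list had a peak at 49078 of them (48.4%), 1 list at 16728 (16.5%), 2 lists at 14742, 3 lists at 10423 and all 4 at 10539 (10.4%). Regions that missed the rule by 1 list were many. Without a peak in K700E RNH1 library 1 or library 2 there were 11004 and 11189 regions, and without a peak in K700E UNT library 1 or library 2 there were 12153 and 4486. An additional peak in K700K RNH1 library 2 excluded 6537 regions, and 682 were excluded by K700K RNH1 library 1. The members just inside the rule had 1 peak at the limit of the lists. At chr12:113601979-113602671 the lowest −log10 q of the 4 peaks was 2.006 and the lowest fold enrichment 2.24.

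To read the pattern in libraries that did not choose it, the rule was applied to the 4 libraries numbered 1 and the peaks of the 4 libraries numbered 2 were counted. The 83601 regions chosen on the libraries numbered 1 had a peak in K700E UNT library 2 at 90.4% and in K700E RNH1 library 2 at 81.5%. They had a peak in K700K UNT library 2 at 10.5% and in K700K RNH1 library 2 at 11.8%. Over all merged regions these shares were 60.5%, 40.4%, 26.8% and 15.8%. The whole pattern was repeated in the libraries numbered 2 at 58.7% of the chosen regions, beside 17.7% of all merged regions. The regions that repeated it are by construction the 49078 regions of the full rule. Of the 127256 regions with both K700E peaks in the libraries numbered 1, whatever their K700K peaks, 42.6% showed the pattern in the libraries numbered 2, and 32.7% had a K700K UNT and 28.1% a K700K RNH1 peak there. Read in the opposite direction, 84671 regions were chosen and 58.0% repeated the pattern, the same 49078 regions. The share was 44.3% of the regions with both K700E peaks in the libraries numbered 2.

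Fold enrichment at the summit, the pileup over the local background, was moderate. Over the 49078 regions its median was 4.87 and 5.05 in the K700E UNT libraries and 5.46 and 5.27 in the K700E RNH1 libraries. Both RNH1 medians lay above both UNT medians. This order was not particular to the regions: over all peaks the medians were 4.39 and 4.30 (K700E UNT) and 4.95 and 4.78 (K700E RNH1). The K700E RNH1 libraries were also the shallower ones, and the part of depth in this order was not tested. The mean of the medians was 4.96 ± 0.122 (SD, n = 2) for UNT and 5.36 ± 0.134 (SD, n = 2) for RNH1, a log2 ratio of 0.11. In the pairs of libraries with the same number, the median log2 ratio over these regions was 0.173 and 0.073. Without K700E RNH1 library 1 the rule chose 60082 regions, and their ratio was 0.026. Without K700E RNH1 library 2 it chose 60267 regions, with a ratio of 0.066. With 2 libraries against 2, an exact permutation test cannot give a p under 0.33, and none is given because these values chose the regions. The middle 50% of the regions lay between 3.98 and 6.20 in K700E UNT library 1 and between 4.36 and 7.11 in K700E RNH1 library 1. The median summit stood on 26 and 33 reads (UNT) and on 25 and 22 reads (RNH1).

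The rule keeps only regions that were still called after digestion, so the direction of change among them is a description of what was kept. In 22416 regions (45.7%) fold enrichment was higher after RNase H in both pairs of libraries with the same number, and in 12198 (24.9%) it was lower in both. It was more than 2 times lower in both pairs at 185 regions and more than 2 times higher in both at 511. Across the regions, which are not independent replicates, Pearson's r of log2 fold enrichment was 0.821 between the UNT libraries, 0.822 between the RNH1 libraries and 0.595 between the UNT and the RNH1 means. Fold enrichment is relative to each library's own background, so it does not show whether the amount of hybrid changed. Over all 101510 regions with a peak in the 4 K700E lists, 48.6% were higher in both pairs and 24.7% lower in both, and the log2 ratio was 0.115. The resistant regions are 48.4% of these. Regions with peaks in all 8 lists had higher medians, 6.07 and 6.54 in K700E UNT and 7.90 and 7.52 in K700E RNH1, and their log2 ratio was 0.29 in K700E and 0.10 in K700K. At the K700K-only resistant regions the log2 ratio was 0.004, with library medians of 6.03 and 6.39 (UNT) and 5.69 and 6.76 (RNH1).

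**Figure D1:**
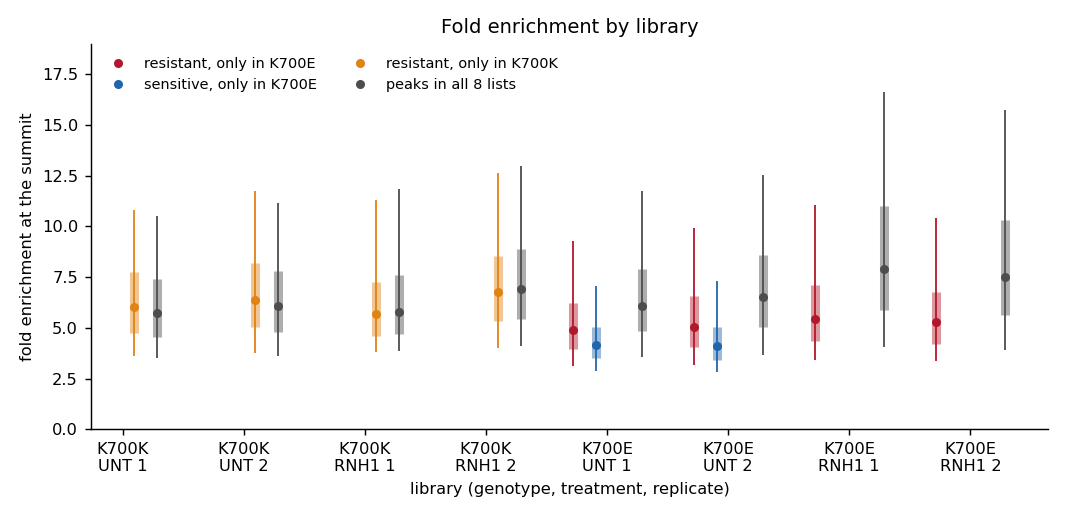
Fold enrichment at the summit (y axis) in each of the 8 libraries (x axis) for 4 classes of regions. Points are medians over regions, thick bars the middle 50% and thin lines the range from the 5th to the 95th percentile. The resistant K700E-only regions have medians from 4.87 to 5.46 in the 4 K700E libraries, above the sensitive regions in both K700E UNT libraries and below the regions with peaks in all 8 lists.

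The sensitive regions had lower fold enrichment before digestion, with medians of 4.15 and 4.11 in the K700E UNT libraries. The 121885 K700E-only untreated regions were split by the lower of their 2 UNT fold enrichments. The share with both RNH1 peaks was 22.7% under 3, 43.0% from 4 to 5 and 70.3% at 8 or more. The share with neither RNH1 peak went from 59.9% to 14.9% over the same strata. Both K700E RNH1 libraries were shallower than both K700E UNT libraries, so treatment and depth cannot be told apart within K700E, and the part of depth in these shares was not tested. The classes were therefore also compared within strata of fold enrichment or length, which were added after the data were seen.

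**Figure D2:**
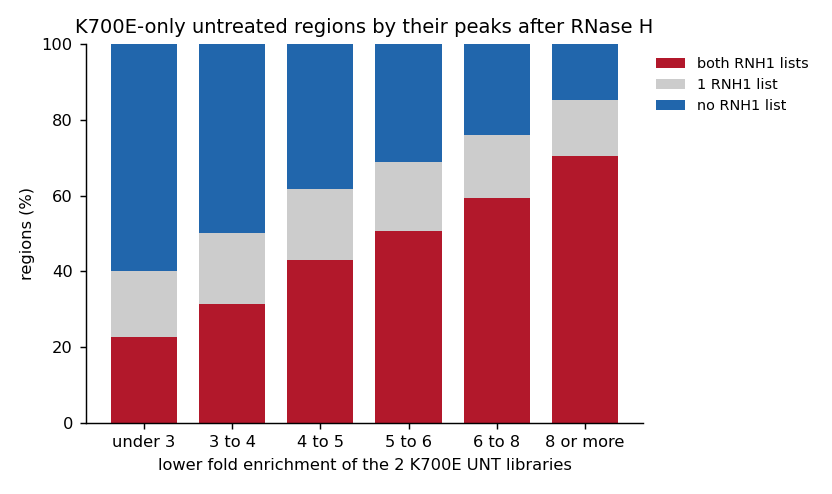
Share of the K700E-only untreated regions (y axis, %) that had a peak in both, 1 or none of the K700E RNH1 lists. They are ordered by the lower fold enrichment of the 2 K700E UNT libraries (x axis). The share with both peaks goes from 22.7% under 3 to 70.3% at 8 or more.

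The 10 regions with the highest fold enrichment in the weakest of their 4 libraries were between 384 and 510 bp long, and 5 of them lay in introns (GRCh38, GENCODE annotation). The first, chr7:20373656-20374104, lies in an intron of ITGB8, an integrin subunit. Its fold enrichment was 20.5 and 20.5 in K700E UNT and 22.5 and 21.2 in K700E RNH1, on summits of 103, 157, 121 and 118 reads. The second, chr3:143174181-143174676, lies near the start of the pseudogene PBX2P1 and had 19.9 and 20.6 (UNT) and 24.1 and 24.0 (RNH1).

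The third, chr16:17143669-17144160 in an intron of XYLT1, which encodes the enzyme that starts the sugar chains of proteoglycans, had 19.2 and 19.7 (UNT) and 25.1 and 24.9 (RNH1). The fifth, chr4:142019380-142019889, overlaps no annotated gene and had 17.96 and 19.7 (UNT) and 21.4 and 19.2 (RNH1). In the first 3, both RNH1 values lay above both UNT values, and in the fifth they overlapped.

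The other 5 were at the promoter of ADCY4, an adenylate cyclase (chr14:24320085-24320468), in introns of ADAMTS20, a secreted metalloprotease (chr12:43409873-43410291), and NELL1, a secreted protein of bone (chr11:21297409-21297881), at pseudogenes including AGGF1P6 (chr16:35489413-35489922), and in the 3' UTR of ACP6, a lysophosphatidic acid phosphatase (chr1:147645596-147646071). Their lowest fold enrichments ran from 16.3 to 17.3. ACP6 had the largest step, with 16.3 and 17.2 in UNT and 24.4 and 23.02 in RNH1. NELL1 had none, with 18.6 and 18.01 in UNT and 18.2 and 16.8 in RNH1. None of these 10 had a peak in any K700K list, as the rule requires.

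All 10 ended at a cut of the enzymes that had fragmented the DNA, on 1 side. Sequence from that cut inward is shown for 4 of the 5 strongest, 240 bases each, 5′ to 3′, read from the reference genome, because the strand that runs from the cut is the strand described further on. The capitals mark the recognition site. The windows, all on the minus strand, are chr7:20373866-20374105 (HindIII) for ITGB8, chr3:143174438-143174677 (BsrGI) for PBX2P1, chr16:17143922-17144161 (HindIII) for XYLT1 and chr4:142019651-142019890 (BsrGI) for the region between genes.
ITGB8: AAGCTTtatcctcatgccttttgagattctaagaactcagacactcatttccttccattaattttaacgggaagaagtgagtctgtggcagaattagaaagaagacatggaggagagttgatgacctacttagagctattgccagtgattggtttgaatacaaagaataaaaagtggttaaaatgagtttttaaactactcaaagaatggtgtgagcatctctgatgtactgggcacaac
PBX2P1: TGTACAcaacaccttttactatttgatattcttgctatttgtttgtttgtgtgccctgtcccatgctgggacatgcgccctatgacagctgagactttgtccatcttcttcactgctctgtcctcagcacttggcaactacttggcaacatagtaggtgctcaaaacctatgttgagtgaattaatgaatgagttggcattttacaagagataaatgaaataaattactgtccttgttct
XYLT1: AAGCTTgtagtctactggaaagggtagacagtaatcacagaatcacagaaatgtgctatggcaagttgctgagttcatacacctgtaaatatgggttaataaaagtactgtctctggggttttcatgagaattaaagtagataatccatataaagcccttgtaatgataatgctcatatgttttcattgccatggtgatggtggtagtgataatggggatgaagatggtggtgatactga
chr4 region: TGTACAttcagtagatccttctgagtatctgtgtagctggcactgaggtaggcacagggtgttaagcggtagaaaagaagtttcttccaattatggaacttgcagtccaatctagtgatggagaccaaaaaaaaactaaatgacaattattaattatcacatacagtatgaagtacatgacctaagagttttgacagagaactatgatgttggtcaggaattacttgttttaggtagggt
A or G made up 55.4% of the bases in ITGB8, 57.1% in XYLT1 and 56.3% in the chr4 region, and 43.3% in PBX2P1. Over all 10 windows the share ran from 42.1% in NELL1 to 64.6% in ACP6 and was above 50% in 7. GC content of the 4 windows was between 37.5% and 40%.

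Exact ends at cuts were general. Of the 98156 edges of the 49078 regions, 33151 (33.8%) lay exactly at a cut, and no other offset within 30 bp held more than 0.0764% of the edges. At least 1 edge was within 2 bp of a cut in 31257 regions (63.7%), and both edges in 3.97%. The share was 60.9% at the sensitive regions, 75.8% at regions with peaks in all 8 lists, 77.8% at the K700K-only resistant regions and 57.4% over all merged regions. Within 6 strata of region length the resistant regions were above the sensitive ones in all 6. When the regions were ranked by the lowest of their 4 fold enrichments and split into 4 groups of about equal size, the share was 73.0% in the strongest group and 55.9% in the weakest.

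**Figure D3:**
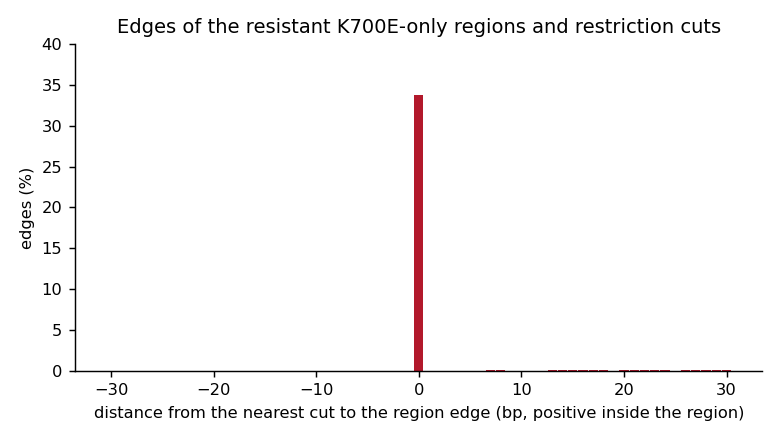
Distance between each edge of the resistant K700E-only regions and the nearest restriction cut (x axis, bp) against the share of all edges (y axis, %). A single bar at 0 holds 33.8% of the edges.

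The edges at cuts were assigned to SspI in 28.7%, HindIII in 24.0%, BsrGI in 20.6%, EcoRI in 13.5% and XbaI in 13.2%. At the sensitive regions SspI had 23.9% and HindIII 26.9%. SspI cuts within AATATT, a site without G or C, and its share over all merged regions was 29.8%. The median restriction fragment at the summit was 1324 bp long for the resistant regions, 1206 bp for the sensitive ones and 1234 bp over all merged regions. A whole recognition site lay inside 8.29% of the resistant, 4.86% of the sensitive and 5.89% of all merged regions, and inside 15.6% of the regions with peaks in all 8 lists. The classes differ in length, and the value was 4.78% for the resistant regions when peaks had to cover at least 50% of a region. The 49078 regions were spread over 48520 restriction fragments, and 557 fragments held 2 or more.

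The strand that runs from the cut into the fragment was rich in purines. In regions with only the left edge at a cut, the top strand was A or G at a median of 53.1%, and in regions with only the right edge at a cut, at 47.0%, which is the same excess read on the other strand. The purine-rich strand ran from the cut in 65.6% of these regions, in 59.9% of the sensitive regions and in 62.0% of all merged regions, and the resistant regions were above the sensitive ones in 6 of 6 length strata. Regions with peaks in all 8 lists had 74.0% and the K700K-only resistant regions 70.3%. With distance from the cut, the purine share at the resistant regions went from 50.2% in the first 50 bp to 53.7% between 400 and 450 bp. Over all merged regions it went from 49.4% to 53.3% in the same bins, nearly the same profile. Around cuts of the genome it stayed between 49.5% and 50.1%, counting only cuts with a fragment longer than 600 bp. The profiles of the regions had no such limit. They ran 600 bp from the cut, past the region end or the next cut where these came earlier.

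**Figure D4:**
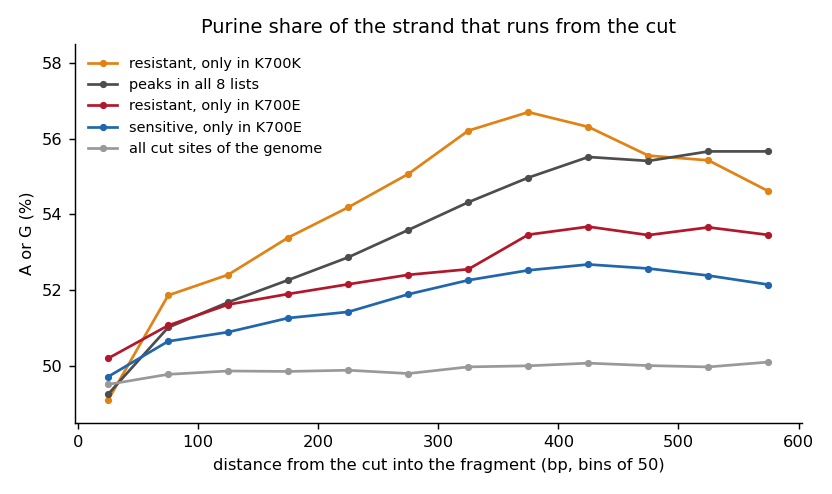
Share of A and G (y axis, %) on the strand that runs 5′ to 3′ from the cut into the fragment, in bins of 50 bp (x axis), for regions with 1 edge at a cut and for all cuts of the genome. The latter are limited to cuts with a fragment longer than 600 bp, and the regions are not. The resistant K700E-only regions reach 53.7% between 400 and 450 bp, above the sensitive regions and below the regions with peaks in all 8 lists, while all cuts stay near 50%. All merged regions, which are not drawn, have 53.3% in that bin.

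Both A and G took part in the excess. Between 400 and 450 bp from the cut, the strand held 31.9% A and 27.8% T, and 21.8% G and 18.5% C. In the first 50 bp it held 30.8% A and 29.9% T, and 19.4% G and 19.9% C. In 14724 resistant regions in introns of genes on 1 strand only, the sense strand was A or G at a median of 48.6%, and at 48.7% over all merged regions of that kind. It was over 50% purine in 42.8% and 43.0% of them. These values take no account of the cut, so whether the excess follows the direction of transcription was not tested. In the 500 bp around the summit, a run of 20 purines or 20 pyrimidines was found at 9.42% of the resistant and 7.83% of the sensitive regions, beside 10.9% of all. A G-quadruplex pattern, 4 runs of at least 3 G with gaps of up to 7 bases on either strand, was found at 3.48% of the resistant, 3.48% of the sensitive and 3.63% of all merged regions.

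GC content lay between the classes. Its median was 40.4% at the resistant regions, 42.4% at the sensitive regions, 38.6% at regions with peaks in all 8 lists, 31.4% at the K700K-only resistant regions and 40.2% over all. The resistant regions were below the sensitive ones on 23 of 23 chromosomes and in 6 of 6 length strata, and above the regions of all 8 lists on 23 of 23 chromosomes. No p is given, because regions are not replicates. Only 1.93% of the resistant regions had more than 50% GC, against 7.08% of the sensitive ones. The gap to the sensitive regions closed with strength: where the lower UNT fold enrichment was 3 to 4 the medians were 40.7% and 42.8%, and at 8 or more they were 39.7% and 39.7%.

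**Figure D5:**
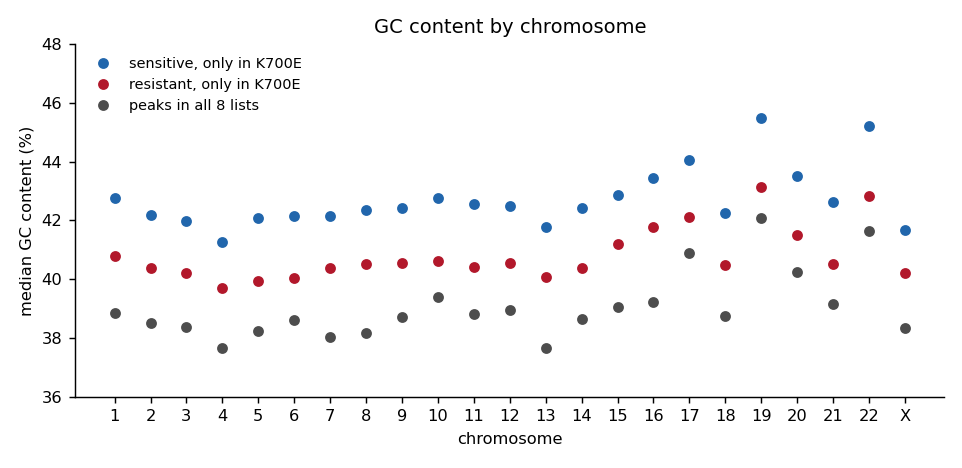
Median GC content (y axis, %) of the regions on each chromosome (x axis) for the resistant K700E-only regions, the sensitive K700E-only regions and the regions with peaks in all 8 lists. On all 23 chromosomes the resistant regions lie between the other 2 classes.

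Repeated sequence took a larger share of the resistant than of the sensitive regions. A 16-base word was counted as multicopy when the genome held it at least 100 times. The median region consisted of such words to 10.4% when resistant, to 1.89% when sensitive and to 4.28% over all merged regions. Over 50% of the words were multicopy in 11.7% of the resistant, 4.24% of the sensitive and 10.3% of all merged regions. The resistant regions were above the sensitive ones in 6 of 6 length strata, with 3.41% against 1.10% under 400 bp and 17.2% against 3.33% from 800 to 1200 bp. The medians came closer with strength, from 20.3% against 2.05% where the lower UNT fold enrichment was 3 to 4 to 2.18% against 1.01% at 8 or more. The share fell with strength among the resistant regions themselves, from a median of 18.5% in the weakest of the 4 groups to 4.12% in the strongest. A read from a repeat can be placed at several sites, and the effect of placement on these values was not tested.

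The large repeat arrays at the centromeres held none of the regions. Bins of 10000 bp with at least 90% multicopy words, joined across gaps of up to 1500000 bp, formed 1 array on each of the 23 chromosomes. Each array held at least 10 such bins, and the arrays spanned 52.1 Mb in all, gaps included. On chromosome 1 the array held 69 such bins in a span of 2.54 Mb. Primers that the study used for the centromere of chromosome 1 matched 2129 places, 1985 of them in these arrays, and none of the 2129 lay in a merged region. Of the 479021 merged regions, 12 lay in them, and 0 of the 49078 resistant regions. Within 2 Mb of the arrays there were 816 resistant regions, 10.1% of the 8082 merged regions there, a share near the 10.2% of the genome. The lists thus hold too few peaks in the arrays to compare the genotypes there.

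The regions were long. Their median length was 667 bp, against 493 bp at the sensitive regions and 482 bp over all, and 1011 bp at the regions with peaks in all 8 lists. A merged region spans the peaks of all its libraries, so length grows with the number of lists. The peaks themselves had median widths of 481 and 525 bp (UNT) and 496 and 487 bp (RNH1), and 408 and 424 bp at the sensitive regions. The longest resistant region, chr1:143245119-143250807, was 5689 bp long, lay between genes and consisted of multicopy words to 53.0%. Its fold enrichment was 14.0 and 9.72 (UNT) and 6.66 and 8.37 (RNH1), lower in both RNH1 libraries than in both UNT libraries.

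The next 4 in length were at most 3590 bp long and had lower values in both UNT libraries. The second, chr1:109545484-109549073 at the promoter of GNAI3, a G protein subunit, had 4.58 and 4.95 (UNT) and 4.57 and 4.31 (RNH1). The next pair, in KALRN, a guanine nucleotide exchange factor (chr3:124629958-124633422), and in LINC02210-CRHR1 (chr17:45664177-45667602), were long only in the UNT libraries. In KALRN the peaks covered 3062 and 3465 bp (UNT) and 339 and 764 bp (RNH1), and in LINC02210-CRHR1 3029 and 3426 bp against 725 and 359 bp. Most of these 2 regions therefore held no RNH1 peak, although the rule counts them as resistant. The fifth in length, chr4:57754336-57757699 between genes, consisted of multicopy words to 72.0%. It had 5.32 and 4.11 (UNT) and 6.98 and 5.19 (RNH1).

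By position, 46.4% of the regions were in introns, 36.5% between genes, 13.7% within 3000 bp of a transcription start site, 2.09% in exons, 1.05% in 3' UTRs and 0.189% in 5' UTRs. The promoter share was 17.6% at the sensitive regions, 15.6% at the regions with peaks in all 8 lists and 15.6% over all merged regions. It was lower at the resistant than at the sensitive regions on 23 of 23 chromosomes and in 6 of 6 length strata, and lower than over all merged regions on 22 of 23. With promoters of 1000 bp to each side the shares were 5.58% at the resistant and 8.16% at the sensitive regions.

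Members were found on every chromosome, and their share of the merged regions was lowest on chromosomes 19 (6.98%, 391 regions), 22 (7.67%, 302), 17 (8.26%, 867) and 16 (8.72%, 911). It was highest on chromosome 6 (10.7%, 3435). The sensitive regions shared this order only in part, with 12.2% on chromosome 16 and 11.4% on chromosome 22. On chromosome 19 they too were low, with 9.50%, and only chromosome X was lower (8.41%). Median GC of the resistant regions was highest on the same chromosomes, 43.1% on chromosome 19 and 42.8% on chromosome 22. Neighbouring members were a median of 34646 bp apart. The 2856 windows of 1 Mb that held a member had a median of 18, and the densest, chr12:99000001-100000000, held 42 of its 235 merged regions.

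Genes with the most members were very long. Of 19970 protein-coding genes, 6954 held a member in the gene body and 424 held 10 or more. DLG2, a scaffold protein of synapses, held 62 members of 469 merged regions in 2173 kb. CNTNAP2, a neurexin-like adhesion protein, held 50 of 437 in 2305 kb. PCDH15, a protocadherin of hair cells, held 46 of 309 in 1825 kb, as many as PTPRD, a receptor tyrosine phosphatase, with 46 of 458 in 2299 kb. Members were 13.2%, 11.4%, 14.9% and 10.04% of the merged regions in these genes, beside 10.2% over the genome.

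At promoters, 3064 of 19962 protein-coding genes (15.3%) had a member within 3000 bp of a start site. Start sites of all annotated transcripts counted, so a member named below can lie inside its gene, away from the main promoter. The share of each gene list is read beside that value and no list was tested. A sensitive region was found at 20.4% of all protein-coding genes. In the lists that share was 45.7% for the DNA damage response, 37.0% for R-loop genes, 28.8% for splicing, 22.6% for B-lineage, 22.4% for centromere and kinetochore, 15.9% for zinc finger and 9.47% for histone genes. Any merged region was found at 70.4% of all protein-coding genes. The lists had 88.6% (damage response), 87.0% (R-loop), 85.7% (centromere and kinetochore), 84.6% (splicing), 83.9% (B-lineage), 72.3% (zinc finger) and 49.5% (histone). Of 46 genes that form, bind or resolve R-loops, 8 had a member (17.4%). FANCM, a DNA translocase of the Fanconi pathway, had 4.98 and 5.29 (UNT) and 6.08 and 5.63 (RNH1) at chr14:45190633-45191552. RPA1, the large subunit of the single-strand binding protein RPA, had 4.63 and 5.49 (UNT) and 6.15 and 5.87 (RNH1) at chr17:1873380-1875156. RECQL5, a helicase that acts on transcribed genes, had 4.36 and 4.74 (UNT) and 7.397 and 5.23 (RNH1) at chr17:75668825-75669930, which is also within 3000 bp of a start site of SAP30BP. RNH1 values were above UNT values in all 3.

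Of 31 B-lineage genes, 7 had a member (22.6%). RAG2, a subunit of the recombinase of antigen receptor genes, had 8.36 and 9.82 (UNT) and 10.2 and 13.2 (RNH1) at chr11:36595365-36595976. This merged region of 612 bp is bounded by a HindIII and a SspI cut, so that it spans a whole restriction fragment. Its peaks covered 479 and 576 bp (UNT) and 388 and 612 bp (RNH1). MS4A1, which encodes CD20, had 6.38 and 8.85 (UNT) and 8.50 and 6.92 (RNH1), which overlap, at chr11:60464445-60464899. ERG, an ETS transcription factor, had 4.02 and 5.29 (UNT) and 7.60 and 5.66 (RNH1) at chr21:38449882-38450830.

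Of 49 centromere and kinetochore genes, 10 had a member (20.4%). CENPF, a protein of the outer kinetochore, had 11.5 and 13.7 (UNT) and 11.7 and 13.5 (RNH1) at chr1:214656538-214657231. That merged region again spans a whole fragment, between HindIII cuts, and its peaks covered 612 and 694 bp (UNT) and 554 and 612 bp (RNH1). BUB1B, a kinase of the spindle checkpoint, had 9.35 and 11.8 (UNT) and 16.1 and 9.995 (RNH1) at chr15:40162092-40162498. KIF2C, a kinesin that depolymerizes microtubules at the centromere, had 9.35 and 12.2 (UNT) and 8.84 and 7.66 (RNH1) at chr1:44740672-44741025, lower in both RNH1 libraries.

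Of 35 genes of the DNA damage response, 6 had a member (17.1%). ATM, the kinase activated by double-strand breaks, had 10.6 and 11.96 (UNT) and 13.8 and 11.0 (RNH1) at chr11:108328047-108328414, at the start of an annotated transcript. ATR, the kinase of replication stress, had 8.86 and 9.53 (UNT) and 10.9 and 13.2 (RNH1) at chr3:142453862-142454382. That region too was placed by the start of an annotated transcript, and its distance from the main start of the gene was not measured. RBBP8, which takes part in end resection, had 4.99 and 4.07 (UNT) and 6.08 and 4.81 (RNH1) at chr18:22974119-22975079.

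Of 52 core splicing genes, 12 had a member (23.1%), the highest share of the lists. Any merged region was found at 84.6% of the 52 genes, against 70.4% of all protein-coding genes. SF3B1 itself was among the 12, at chr2:197433939-197434322, with 6.50 and 9.74 (UNT) and 9.92 and 8.38 (RNH1). SF3B3, its partner in the SF3b complex, had 7.35 and 8.76 (UNT) and 11.96 and 10.6 (RNH1) at chr16:70526665-70527034. SRSF11, a serine and arginine rich factor, had 6.88 and 7.11 (UNT) and 6.92 and 6.66 (RNH1) at chr1:70233110-70233946.

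Of 516 zinc finger genes named ZNF, 73 had a member (14.1%), with ZNF827, ZNF438 and ZNF573 the strongest. Of 95 histone genes, 8 had a member (8.42%), the lowest share, and 49.5% of them had any merged region within 3000 bp, against 70.4% of all protein-coding genes. The strongest were the testis histone H3-4, with 14.9 and 12.1 (UNT) and 14.6 and 13.0 (RNH1) at chr1:228427709-228428033, and the germ cell linker histones H1-8 and H1-7. H1-8 had 7.53 and 9.91 (UNT) and 6.12 and 6.76 (RNH1) at chr3:129550668-129551337, and all 4 of its peaks were the same 670 bp, from a XbaI to a HindIII cut.

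Of 12 primer pairs for DRIP-qPCR in Nalm-6, 9 matched a single place in the genome. Only the product of ZNF90 touched a resistant region, by its last bases. That region, chr19:20118864-20119273, had 16.5 and 15.6 in K700E UNT and 8.25 and 6.76 in K700E RNH1, and is counted as resistant although its enrichment was lower in both RNH1 libraries. The products of BTBD19, EGR1, ING3, NOP58 and LOC440704 lay in no merged region. Those of SNRPN, SLC9A5 and DDX10 lay in regions that the rule did not choose, and the DDX10 region had peaks of 9.42 and 10.1 in the K700K UNT libraries and none in K700E.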

How the data were processed

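DRIP-seq libraries of Nalm-6 K700K and K700E cells, untreated or RNase H treated, were analysed (2 per group). Methods state that reads were aligned to GRCh38 with BWA-MEM, that mitochondrial and duplicate reads were discarded, and that narrow peaks came from MACS2. The deposited lists are separate for each library. For every peak the authors deposited a fold enrichment, the ratio of its summit to the local background, a −log10 p-value and −log10 q-value, and a whole-number score, which was not used. Methods state a q of 0.05, but the lists hold only peaks with q of at most 0.01. They also name a paired-end read format for the caller beside a single-read protocol. The setting that made the lists, on which pileups, widths and edges depend, is therefore not settled. How reads with several placements were treated is not given in the sources used here. The deposited table of splice junctions in HEK293T cells was not used.

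Peaks on chromosomes 1 to 22 and X were merged where they shared at least 1 base, and presence was read per library. Fold enrichment of a region is that of its strongest peak. Summit pileup t and background c were recovered by solving fold = (t + 1)/(c + 1) together with the Poisson p, which succeeded for at least 99.9% of the peaks of each list, and the smallest c is given as the background. Regions were annotated with GENCODE transcripts in the order promoter (3000 bp), 5' UTR, 3' UTR, exon, intron, downstream (300 bp), intergenic. Sequence was read from GRCh38. Cut sites were searched as AAGCTT (HindIII), GAATTC (EcoRI), TGTACA (BsrGI), TCTAGA (XbaI) and AATATT (SspI). The planned share of bases in repeats was replaced by multicopy 16-base words, because the reference was not soft-masked. Merging, the rule and the recovery of pileups were tested on simulated lists.

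Named regions are the 10 strongest by their lowest fold enrichment, the 5 longest, those at the study's DRIP-qPCR products, the 3 strongest at promoters of each gene list, and the 3 genes with most members (4 because of a tie). Of the 10 strongest, 1 is not reported here. The members and lists were chosen with earlier results of these data known. Values are medians over regions per library, with the mean ± SD over 2 libraries. Depth is known only through the recovered pileups. Python 3.11.15, numpy 2.4.6, pandas 2.3.3, scipy 1.17.1 and matplotlib 3.10.9 were used.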

Additional observations from a re-analysis of the deposited data

Results flagged for a closer look

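The same rule chose 45 regions on unplaced and alternative contigs, which entered no comparison. They were 8.32% of the 541 merged regions on 70 contigs, where 53 regions had peaks in all 8 lists and the exchanged rule chose 0. They are noted because they lie outside the chromosomes used, and they were not described further. Groups of 2 libraries are too small for a check on single libraries that stand apart.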

How the results depend on the processing

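The number of resistant regions went from 49078 to 25947 when a fold enrichment of at least 4 was required in all 4 K700E libraries, and was between 35398 and 43266 with stricter q values, an overlap of at least 50%, no K700K peak within 1000 bp, or all libraries scaled to the shallowest. Leaving out 1 library gave 49760 to 61231 regions, and 4091 to 8392 for the exchanged rule. The share of resistant regions among the K700E-only untreated regions was 33.1% with the 50% overlap and 46.5% at scaled depth. It was 31.6% to 49.4% with 1 library left out, lowest without K700E UNT replicate 1 and highest without K700E RNH1 replicate 2. Median GC was 40.02% with the fold enrichment of at least 4, and 40.2% to 40.6% with 1 library left out. The promoter share was 14.2% both with a −log10 q of at least 5 and at scaled depth, 5.58% with promoters of 1000 bp, and 13.5% to 14.2% with 1 library left out. Regions with a recognition site inside were 9.21% with the fold enrichment of at least 4, 9.51% with a −log10 q of at least 5, 4.78% with the 50% overlap and 9.15% at scaled depth, and 7.78% to 8.66% with 1 library left out. The log2 ratio of RNH1 over UNT stayed above 0, from 0.026 without K700E RNH1 replicate 1 to 0.15 without K700E UNT replicate 2, and was 0.12 with the replicate block, in which libraries of the same number were paired. It was 0.076 at scaled depth. The pattern read in the opposite direction was repeated at 58.0% of the regions, by construction the same 49078 regions as in the first direction. Merging peaks that only touch changed none of these values by more than the spread between replicates. The share of bases in repeats was not run, and the cause of these differences was not tested. Strata of length and fold enrichment, multicopy words and repeat arrays were added after seeing the data.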
